A study of Bos taurus with 9 samples.

Results

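The genes described here act on nucleotides, RNA and DNA in the interferon response. They were chosen by gene symbol from a fixed list of 10, SAMHD1, CMPK2, SAMD9, ISG20, ADAR, TREX1, ZNFX1, EIF2AK2, DDX60 and HELZ2. Of these, 8 were found in the table of 17162 genes, and all 8 passed the filter on low values, as did 12578 genes in all. DDX60 and HELZ2 are not analysed here. RNA of bovine endometrial cells (BEND), grown from Holstein uteri and purified by differential attachment, was sequenced in 9 libraries. CON cells received no hormone and no interferon. GA cells received estradiol (E2, 1 nM) and progesterone (P4, 100 nM). GB cells received the same E2 and P4 for 12 h and then interferon tau (IFNT, 100 ng/mL) for a further 12 h. All cells were labelled wild type and shared the same medium with serum, and each group had 3 libraries. How many cows the cells came from, and when CON and GA cells were collected, is not given in the sources used here, so p-values measure the spread between these libraries, and culture time cannot be told apart from treatment in the comparisons with GB.

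Before implantation the conceptus of ruminants secretes IFNT, a type I interferon that reaches the uterine lining and uses the receptor common to this class. Part of that response changes the supply of nucleotides and the fate of foreign or misplaced RNA and DNA. Some of its enzymes degrade nucleic acids or edit double-stranded RNA, others sense double-stranded RNA and stop translation, and others set the size of nucleotide pools that viruses need.

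The values are FPKM, fragment counts scaled to transcript length and to library size, so levels of different genes can be set side by side. The FPKM of a library summed to between 1395622 and 1442723, and between 14452 and 14893 genes were above 0. The files hold no read counts. The step that a single read adds to genes of few reads put the depth of the 9 libraries between 0.871 and 1.07 of that of CON1. This estimate is rough, as it rests on 23 (GB2) to 48 (GA3) genes in each library other than CON1. The paper reported more clean reads for GA than for CON, which the estimate does not show. The label describes epithelial cells, and the paper reported positive immunofluorescence for a cytokeratin. In RNA, none of the 9 epithelial markers examined reached a mean of 1 FPKM. Summed over these markers, FPKM ran from 0.590 to 1.77 for CON libraries, from 0.970 to 1.72 for GA and from 1.33 to 2.23 for GB. KRT18, a keratin of simple epithelia whose protein the paper stained to check purity, had a mean of 0.273 FPKM in CON. RNA and protein are unlike measures, and the difference was not tested. All 8 stromal fibroblast markers passed 1 FPKM. They summed to 16280 to 16860 FPKM for CON, 16490 to 16820 for GA and, lower than both, 14750 to 14850 for GB. VIM gave the largest part of this sum, with a mean of 7777 FPKM in GB. The markers did not all move the same way. From GA to GB the mean rose for PDGFRA (155.8 to 195.7 FPKM) and PDGFRB (217.8 to 233.3) and fell for the others. Against CON it was higher in GB for PDGFRA, DCN and LUM and lower for the others. Of 4 endothelial markers 1 reached 1 FPKM (sum 1.22 to 3.13 over the 9 libraries). Of 6 immune markers 5 were present and 2 reached 1 FPKM (sum 20.77 to 27.62 FPKM). The part of these markers in the results below was not tested.

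With IFNT 7 of the 8 genes rose, and SAMHD1 was the exception. CMPK2, SAMD9, ISG20, ADAR, TREX1, ZNFX1 and EIF2AK2 were called higher in GB than in GA and also higher in GB than in CON. SAMD9 passed the filter on low values only through GB, so its passing already implied a higher level in GB. With no filter on low values it was also called (log2FC 6.99 in GB vs. GA, adjusted p = 2.93e-09, limma). For each of the 7, every GB library lay above every CON and GA library. Calls needed |log2FC| over 1 in log2(FPKM + 0.5) together with an adjusted p (limma, Benjamini-Hochberg over 12578 genes) under 0.05. With that rule 2.66% of all tested genes were called higher in GB vs. GA and 2.94% in GB vs. CON. Genes whose GB libraries all lay above those of the other group made up 15.7% of all tested genes against GA and 22.2% against CON. The summed FPKM of the 8 genes was 153.8 ± 6.32 for CON (SD, n = 3), 155.4 ± 1.09 for GA and 1166 ± 17.7 for GB. In bulk RNA a rise in each cell and a rise in the share of responding cells cannot be told apart.

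**Figure D1:**
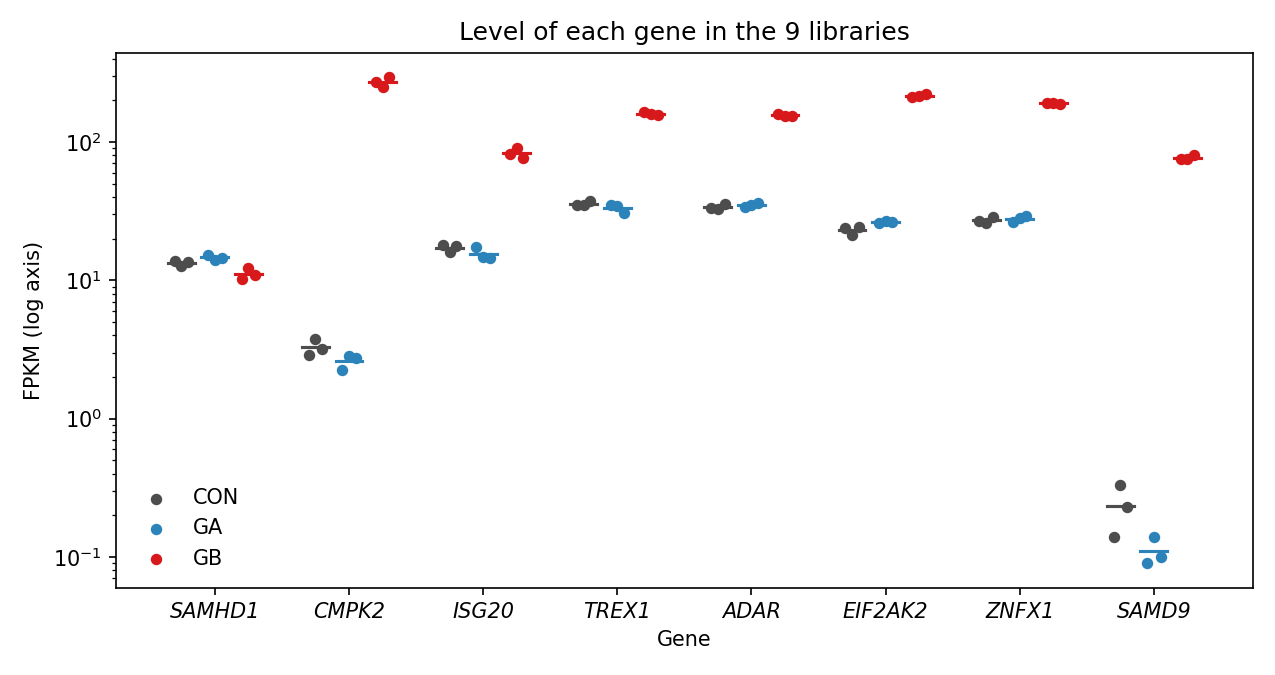
FPKM (log axis) of the 8 genes in each of the 9 libraries, 3 points per group, with CON in grey, GA in blue and GB in red and a bar at the group mean. The GB points stand above all others for every gene but SAMHD1, whose GB points lie lowest, at 10.26 to 12.22 FPKM.

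The genes that act on free nucleotides moved apart. CMPK2 is a nucleotide kinase of mitochondria that phosphorylates UMP and CMP. Its FPKM values were 2.88, 3.76 and 3.17 for CON, 2.25, 2.84 and 2.74 for GA and 270.64, 251.68 and 293.47 for GB, so GB stood far above the other groups. The mean in GB was 104.2 times that in GA, and CMPK2 went from the seventh level of the 8 genes without IFNT to the highest with it. Its log2FC was 6.46 in GB vs. GA (SE 0.109, adjusted p = 2.65e-10) and 6.18 in GB vs. CON (adjusted p = 3.56e-10). CMPK2 supplied 23.3% ± 1.44 (SD, n = 3) of the summed FPKM of the 8 genes in GB, against 2.13% ± 0.362 in CON and 1.68% ± 0.209 in GA.

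SAMHD1, which cleaves deoxynucleoside triphosphates and so lowers the supply for DNA synthesis, had FPKM values of 13.68, 12.61 and 13.47 for CON, 15.31, 14.10 and 14.53 for GA and 10.26, 12.22 and 10.98 for GB. The 3 groups did not overlap, with GA highest and GB lowest. Groups apart in this direction were found for 31% of all tested genes in GB vs. GA and 23.9% in GB vs. CON. The log2FC was −0.38 in GB vs. GA (95% confidence interval −0.56 to −0.21, adjusted p = 0.00586, limma) and −0.24 in GB vs. CON (−0.42 to −0.067, adjusted p = 0.039). Neither reached the fold threshold, so SAMHD1 was not called, and both intervals lie far from a rise of the threshold size. An adjusted p under 0.05 at a lower level was found for 19.2% of all tested genes in GB vs. GA and 17.3% in GB vs. CON. The median log2FC of all tested genes was −0.075 and −0.016 in the same comparisons. In GB vs. CON the adjusted p of SAMHD1 was above 0.05 without CON1 (0.103), CON3 (0.0936), GB1 (0.126) or GB3 (0.0972), between 0.0508 and 0.0551 with a GA library left out of the shared fit, 0.0601 with no filter on low values and 0.0747 with CON and GB fitted alone. In GB vs. GA it stayed between 0.00464 and 0.0255 with each library left out in turn. Among the 8 genes SAMHD1 held the sixth level in CON and GA and the lowest in GB.

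SAMD9 encodes a large cytoplasmic protein that restricts poxviruses. It had the lowest level of the 8 genes without IFNT, with FPKM values of 0.14, 0.33 and 0.23 for CON and 0.09, 0.14 and 0.10 for GA, and it reached 75.21, 75.04 and 80.93 FPKM in GB. In GB its level lay above that of 78.6% of tested genes. The log2FC of 6.99 in GB vs. GA (SE 0.125, adjusted p = 3.74e-10) and 6.73 in GB vs. CON (adjusted p = 4.1e-10) was the highest of the 8 genes and the nineteenth and twentieth highest of all tested genes. It understates the change, since the pseudocount of 0.5 exceeds every value without IFNT. With a pseudocount of 0.1 the log2FC in GB vs. GA was 8.53.

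Nucleases formed a second group with smaller rises from a higher starting level. TREX1 is the main 3′ exonuclease that clears DNA from the cytoplasm. Its FPKM values were 34.83, 35.05 and 37.31 for CON, 34.74, 34.34 and 30.51 for GA and 165.18, 159.65 and 156.90 for GB. GB vs. GA gave a log2FC of 2.26 (SE 0.0595, adjusted p = 3.79e-09). ISG20, a 3′ exonuclease that prefers RNA, had 17.86, 16.00 and 17.56 FPKM for CON, 17.48, 14.63 and 14.45 for GA and 82.52, 91.09 and 76.97 for GB, with CON and GA overlapping. Its log2FC was 2.39 in GB vs. GA (SE 0.0907, adjusted p = 5.97e-08). These 2 genes thus rose by 4.84 and 5.38 times in mean FPKM against GA, and the confidence intervals of their log2FC overlap (2.12 to 2.39 for TREX1 and 2.19 to 2.60 for ISG20). In the RefSeq table of ARS-UCD2.0, a later assembly than the one the files use, ISG20 overlaps LOC616063. That gene, looked up after its overlap was found, also rose, from 6.10 ± 0.123 FPKM in GA to 20.79 ± 1.39 in GB (log2FC 1.69, adjusted p = 4.31e-05, limma). The paper names a directional library kit, but whether reads were counted by strand is not given in the sources used here.

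Genes that act on double-stranded RNA also rose. ADAR, the deaminase that turns adenosine into inosine in double-stranded RNA, had 33.52, 32.79 and 35.61 FPKM for CON, 33.98, 34.87 and 36.32 for GA and 158.55, 154.14 and 153.57 for GB. Its log2FC of 2.13 in GB vs. GA (SE 0.0485, adjusted p = 1.37e-09) was the smallest of the 7 rises. EIF2AK2 encodes PKR, the kinase that phosphorylates eIF2α and halts translation when it binds double-stranded RNA. Its FPKM values were 23.88, 21.16 and 24.38 for CON, 25.97, 26.74 and 26.53 for GA and 210.31, 213.85 and 221.43 for GB. GB vs. GA gave a log2FC of 3.002 (SE 0.0585, adjusted p = 5.57e-10). ZNFX1 is a helicase of the UPF1 family that binds viral RNA at mitochondria. Its FPKM values were 26.83, 25.91 and 28.51 for CON, 26.43, 28.15 and 29.01 for GA and 191.81, 190.85 and 189.66 for GB. Its log2FC against GA was 2.75 (SE 0.0528, adjusted p = 5.14e-10). The spread of ZNFX1 within GB, a coefficient of variation of 0.565%, was the smallest of the 8 genes there. In GB the 3 genes lay at 155.4 ± 2.73 (ADAR), 215.2 ± 5.68 (EIF2AK2) and 190.8 ± 1.08 FPKM (ZNFX1), and their GB libraries did not overlap. In the same RefSeq table EIF2AK2 overlaps GPATCH11 and LOC112448863. GPATCH11 was at 34.75 ± 2.10 FPKM in GA and 25.93 ± 3.11 in GB and was not called, while LOC112448863, looked up in the same way, rose from 4.55 ± 0.855 to 34.78 ± 4.43 FPKM (log2FC 2.81, adjusted p = 3.14e-07, limma). In mean FPKM the fold was 7.65 for LOC112448863 and 8.15 for EIF2AK2, and shared reads were not tested.

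**Figure D2:**
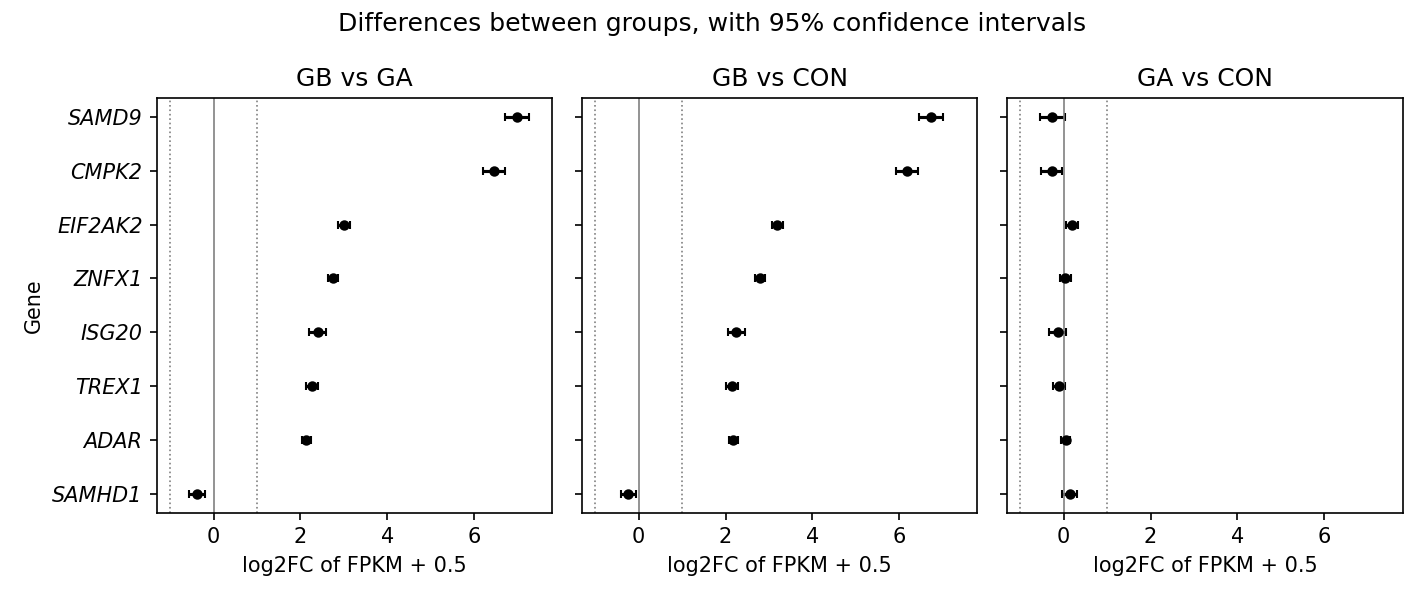
log2FC of FPKM + 0.5 for the 8 genes in GB vs. GA, GB vs. CON and GA vs. CON, with points for the estimate, bars for the 95% confidence interval of limma and dotted lines at the fold threshold of 1. In both comparisons with GB, SAMD9 and CMPK2 lie above 6, the other 5 called genes between 2.13 and 3.19 and SAMHD1 below 0, while all 8 lie within the dotted lines in GA vs. CON.

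In size, SAMD9 and CMPK2 had a log2FC above 6, EIF2AK2 and ZNFX1 of 3.002 and 2.75, and ISG20, TREX1 and ADAR of 2.39, 2.26 and 2.13 in GB vs. GA. The confidence intervals of neighbours in this order overlap between EIF2AK2 and ZNFX1, between ISG20 and TREX1 and between TREX1 and ADAR, and not between the other neighbours. GB vs. CON uses the same GB libraries, and there the values were 6.73 for SAMD9, 6.18 for CMPK2, 3.19 for EIF2AK2, 2.79 for ZNFX1, 2.25 for ISG20, 2.18 for ADAR and 2.15 for TREX1. In that comparison the intervals of EIF2AK2 and ZNFX1 do not overlap, and overlap is found between ISG20 and ADAR and between ADAR and TREX1. Among the 335 genes called higher in GB vs. GA, the 7 held places 19 (SAMD9), 23 (CMPK2), 98 (EIF2AK2), 107 (ZNFX1), 128 (ISG20), 140 (TREX1) and 149 (ADAR) by log2FC. By the gain in mean FPKM the order differed, with 269.3 for CMPK2, 188.8 for EIF2AK2, 162.9 for ZNFX1, 127.4 for TREX1, 120.4 for ADAR, 76.95 for SAMD9 and 68.01 for ISG20. The levels also had another order with IFNT. Without hormones the order was TREX1, ADAR, ZNFX1, EIF2AK2, ISG20, SAMHD1, CMPK2 and SAMD9, and the libraries of neighbours overlapped for TREX1 and ADAR alone. In GB it was CMPK2, EIF2AK2, ZNFX1, TREX1, ADAR, ISG20, SAMD9 and SAMHD1, with overlap for TREX1 and ADAR and for ISG20 and SAMD9.

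E2 and P4 without IFNT gave no call among the 8 genes. In GA vs. CON limma called 0 of 8, where 0.0716% of all tested genes were called, and none had an adjusted p under 0.05 (0.453% of all tested genes). Unadjusted, 2 of the 8 passed 0.05 in limma, where 19.3% of all tested genes did. They were EIF2AK2 (log2FC 0.19, 95% confidence interval 0.058 to 0.32, adjusted p = 0.146, limma) and CMPK2 (−0.28, interval −0.52 to −0.030, adjusted p = 0.218, limma). The CON and GA libraries did not overlap for 4 of the 8 genes, SAMHD1, CMPK2, TREX1 and EIF2AK2, as for 24.7% of all tested genes. ISG20, TREX1, ADAR, ZNFX1 and SAMHD1 had log2FC between −0.14 (ISG20) and 0.14 (SAMHD1). For these genes, EIF2AK2 and CMPK2, changes beyond the fold threshold lie outside the 95% confidence interval. For SAMD9 the log2FC was −0.26 (adjusted p = 0.289, limma), but its level was too low in both groups for this scale to bound the change. Its mean FPKM in GA was 0.471 of that in CON, and the log2FC ran from −0.15 with a pseudocount of 1 to −0.63 with a pseudocount of 0.1. All tested genes together had a median log2FC of 0.061 in this comparison. The signs of ADAR (0.045) and ZNFX1 (0.040) turned negative with median-of-ratios or quantile scaling.

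Counterparts of 4 of the 8 genes in the same enzyme classes were not called. CMPK1, the UMP-CMP kinase of the cytoplasm, was at 151.49, 150.12 and 160.75 FPKM in GA and 133.72, 154.37 and 153.44 in GB and was not called (log2FC −0.069, adjusted p = 0.537, limma). The CMPK2 level was 0.0169 ± 0.00204 of the CMPK1 level in GA (SD, n = 3) and 1.86 ± 0.203 of it in GB. ADARB1, the other catalytically active adenosine deaminase of double-stranded RNA, was at 5.90, 6.41 and 7.45 FPKM in GA and 4.01, 4.14 and 4.18 in GB. Its log2FC of −0.61 (adjusted p = 0.00132, limma) was under the fold threshold and opposite in sign to that of ADAR, and the ratio of ADAR to ADARB1 in FPKM was 5.36 ± 0.448 in GA and 37.84 ± 1.49 in GB. TREX2, the paralog of TREX1, varied widely within groups, from 2.60 to 7.57 FPKM in GA and 1.78 to 3.81 in GB, and was not called (log2FC −0.86, 95% confidence interval −1.85 to 0.12).

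EIF2AK2 was near the level of the other eIF2α kinases in CON and GA and far above it in GB. EIF2AK1, activated by low heme, EIF2AK3 (PERK), activated by unfolded protein in the endoplasmic reticulum, and EIF2AK4 (GCN2), activated by amino acid shortage, had means of 26.95, 22.73 and 21.98 FPKM in GA and 28.17, 17.55 and 19.82 in GB. None of the 3 was called, and EIF2AK3 had a log2FC of −0.37 in GB vs. GA (adjusted p = 0.00389, limma). EIF2AK2 made up 24.8% ± 1.25 (SD, n = 3) of the summed FPKM of the 4 kinases for CON, 26.9% ± 0.0876 for GA and 76.6% ± 1.02 for GB. Transcripts of the subunits of eIF2 and eIF2B, of the phosphatase partners PPP1R15A and PPP1R15B, of the PKR inhibitor DNAJC3 and of ATF4, the factor translated when eIF2α is phosphorylated, completed a list of 15 genes, none of which was called in either comparison with GB. The share of all tested genes called was 3.64% against GA and 4.01% against CON, so a list of this length could hold none at the background share. An adjusted p under 0.05 was found for 2 of the 15 in GB vs. GA, both lower, and for 8 in GB vs. CON, 7 of them higher (16.2% of all tested genes). Such an adjusted p was found for 29% of all tested genes against GA and 33.5% against CON.

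**Figure D3:**
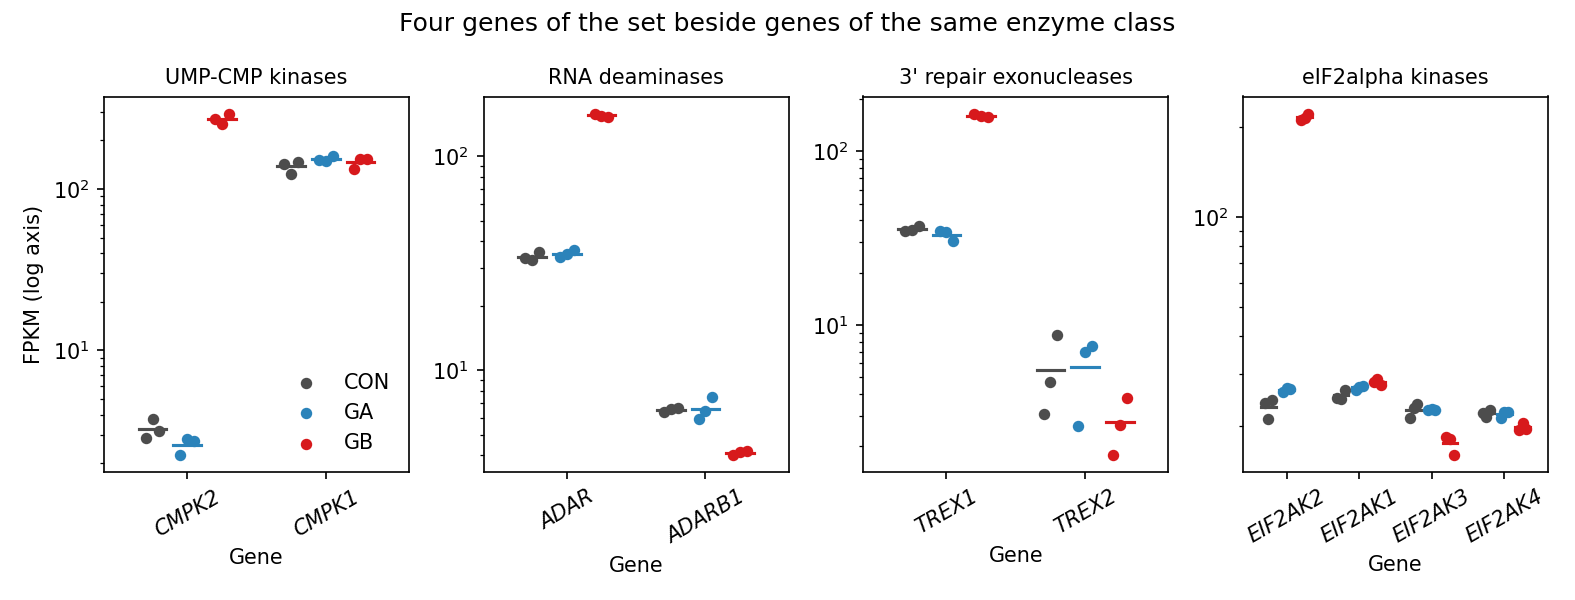
FPKM (log axis, a scale of its own in each panel) of CMPK2, ADAR, TREX1 and EIF2AK2 beside genes of the same enzyme class in the 9 libraries, with CON in grey, GA in blue and GB in red and a bar at each group mean. The GB points of the 4 genes stand apart from CON and GA, while CMPK1 stays near 150 FPKM, from 124.74 to 160.75, and ADARB1 is lower in GB, at 4.01 to 4.18.

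A wider set of related genes was read for comparison. Of 72 symbols in 6 lists, 68 were in the table and 66 were tested, and 2 of the 66 were called higher in GB vs. GA and 0 lower, against 2.66% higher and 0.978% lower of all tested genes. At an unadjusted p under 0.05 there were 28 of the 66 in that comparison, where 40% of all tested genes passed, a like share. Their median log2FC was −0.021 in GB vs. GA and 0.075 in GB vs. CON. In GB vs. CON the share with an adjusted p under 0.05 (limma) at a higher level was above that of all tested genes. It was found for 21 of the 66, against 16.2% of all tested genes, and at a lower level for 6 of the 66, against 17.3%. The same 2 genes were called in both comparisons. PNPT1, the 3′ exonuclease of mitochondrial RNA, rose from 21.62 FPKM in GA to 128.4 in GB (log2FC 2.54, adjusted p = 1.11e-08, limma). MOV10, a UPF1-like helicase that restricts retroviruses and retrotransposons, was at 19.49, 19.71 and 19.34 FPKM in GA and 98.01, 102.25 and 94.65 in GB (log2FC 2.30, adjusted p = 2.02e-09, limma). Without GA1, TREX2 was also called (log2FC −1.31, adjusted p = 0.0434, limma), which made 3. SAMD9L, the paralog of SAMD9, is not analysed here.

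Of 18 nucleotide pool genes none was called, and 3 had an adjusted p under 0.05 above 0 and 3 below 0 in GB vs. GA, against 9.87% and 19.2% of all tested genes. Those above 0 were DCK (0.61), TK1 (0.50) and UCK2 (0.28), and those below 0 were TYMS (−0.20), UCK1 (−0.25) and NT5M (−0.27). DCK, TK1, UCK2 and UCK1 all encode kinases of salvaged nucleosides, so this class went both ways. Other such kinases, TK2 (−0.27) and DGUOK (−0.086), had adjusted p of 0.1 and 0.558 (limma). The ribonucleotide reductase subunits RRM1 and RRM2, which make deoxynucleotides, had a log2FC of −0.10 and −0.0087 in GB vs. GA. NT5C3A, a nucleotidase, was at 0.17 in GB vs. GA (adjusted p = 0.0946, limma) and 0.49 in GB vs. CON (adjusted p = 0.00055). Of the 14 nucleases, PNPT1 was called, and XRN1, the 5′ to 3′ exonuclease of the cytoplasm, had a log2FC of 0.40 (adjusted p = 0.00291, limma) without passing the fold threshold. The 3 subunits of RNase H2 lay between −0.13 and 0.0023. Of the ISG20-like exonucleases, ISG20L2 was at 0.14, AEN at 0.028 and REXO4 at 0.030, all with adjusted p above 0.05 (0.231, 0.691 and 0.861, limma). Of 9 tested genes of RNA editing and double-stranded RNA binding none was called, and 7 lay below 0. An adjusted p under 0.05 (limma) was found for 3 at a lower level and 1 at a higher level. Those lower were ADARB1, DICER1 (−0.29, adjusted p = 0.00414) and DHX9, a helicase that unwinds double-stranded RNA (−0.31, adjusted p = 0.00066, limma). ILF2 was higher (0.15, adjusted p = 0.0223, limma). Of 10 tested helicases MOV10 was called, and HELZ (0.24) and UPF1 (0.16) had an adjusted p of 0.0198 and 0.0176 (limma) under the fold threshold. MTREX, of the same list, was lower (−0.17, adjusted p = 0.0343, limma), and 5 of the 10 lay below 0. ADARB2 and HFM1 were below the filter. Of all tested genes 3.64% were called in GB vs. GA, so lists this short could hold few or none at that share.

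**Figure D4:**
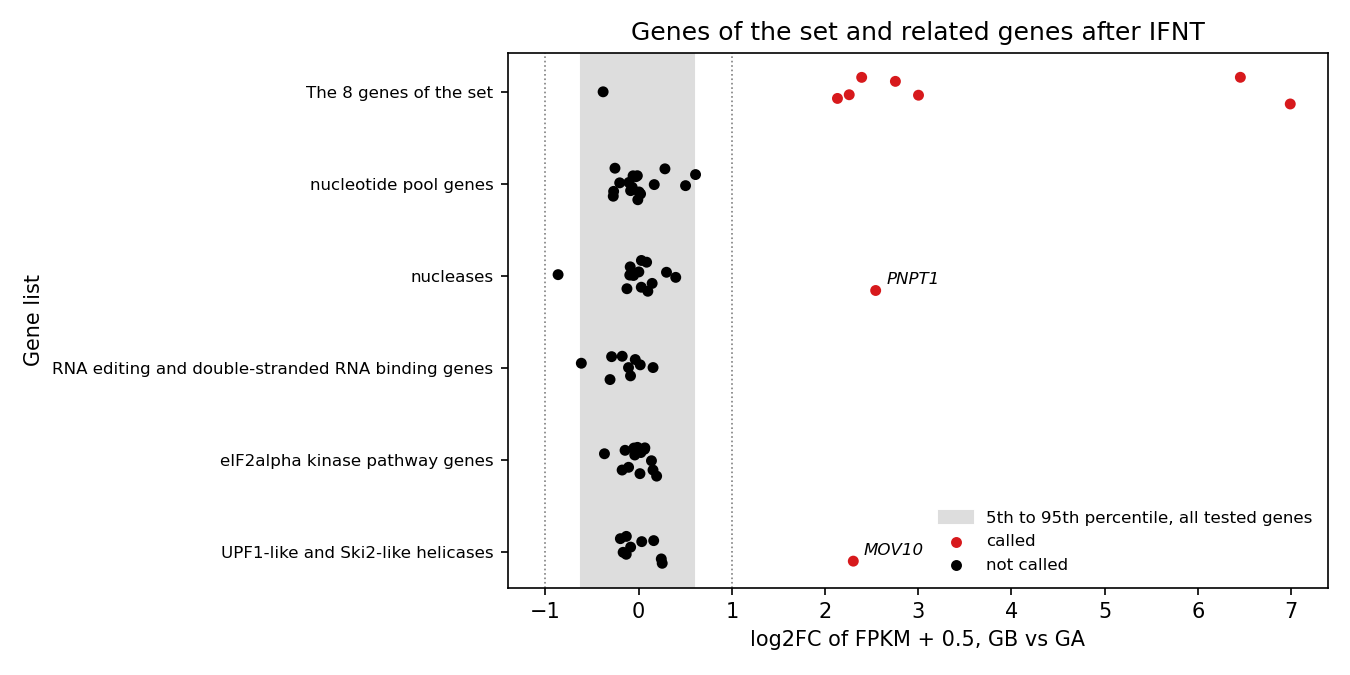
log2FC of FPKM + 0.5 in GB vs. GA for the 8 genes of the set and for 5 lists of related genes, each point a gene, in red where called, with dotted lines at the fold threshold and the grey band from the 5th to the 95th percentile of all tested genes (−0.62 to 0.59). Of the related genes PNPT1 (2.54) and MOV10 (2.30) are in red, and 7 of the 8 genes of the set.

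The changes of the 8 genes were matched with those of other genes across the 9 libraries. Likeness was the root mean square difference in log2(FPKM + 0.5), each gene taken relative to its own CON mean, and it is a description with the treatment shared by all points. The nearest gene was IFIT3 for CMPK2 (0.161), LOC507055, described in the file as a guanylate-binding protein, for SAMD9 (0.296), IRF9 for ADAR (0.0605), MOV10 for both TREX1 (0.0674) and ISG20 (0.0910), WARS for ZNFX1 (0.0747) and IFIT5 for EIF2AK2 (0.0835). For SAMHD1 it was HIKESHI (0.0418), which was at 110.87, 105.75 and 113.73 FPKM in GA and 78.71, 87.35 and 84.05 in GB.

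Genomic neighbours were read from the RefSeq table of ARS-UCD2.0, which places CMPK2 and EIF2AK2 on chromosome 11, SAMHD1 and ZNFX1 on 13, ADAR on 3, SAMD9 on 4, ISG20 on 21 and TREX1 on 22. Genes with LOC names were passed over, so a named neighbour need not be the closest gene. RSAD2, the gene of the antiviral enzyme viperin, lies next to CMPK2 and was at 0.30, 0.29 and 0.32 FPKM in GA and 840.86, 869.97 and 854.88 in GB (log2FC 10.06, adjusted p = 7.3e-11, limma). SHISA5, on one side of TREX1, rose from 166.5 FPKM in GA to 393.2 in GB (log2FC 1.24, adjusted p = 5.44e-07, limma). ATRIP, on the other side, was higher in GB than in GA under the fold threshold and was not called (log2FC 0.34, adjusted p = 0.00145, limma). AEN next to ISG20, CDK6 next to SAMD9 and DDX27 next to ZNFX1 were not called, with log2FC of 0.028, −0.15 and −0.17 in GB vs. GA. KCNN3 and CHRNB2 next to ADAR and HEPACAM2 next to SAMD9 did not pass 0.20 FPKM in any library. TLDC2, which overlaps SAMHD1, was at 0.30, 0.58 and 0 FPKM in CON and was listed at 0 in all GA and GB libraries.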

How the data were processed

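The authors trimmed reads with fastp 0.21.0, removed rRNA reads with Bowtie2 2.33, aligned to ARS-UCD1.2 with HISAT2 2.2.1 and counted reads per gene with RSEM 1.3.3. What the authors deposited is a table of FPKM to 2 decimals, a value for each gene in each library, without read counts. The annotation release is not given in the sources used here. Columns were assigned to samples by their names.

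Here log2(FPKM + 0.5) of the 12578 genes with a mean of at least 0.5 FPKM was fitted with limma 3.58.1 in R 4.3.3, over all 9 libraries with 1 mean per group and a variance trend, and p-values were adjusted over all these genes. The fit was tested on simulated data with normal noise, where 200 genes not low in CON were given a log2FC of 2 or −2 in GB. Of these, 198 were recovered in GB vs. GA. This does not cover levels as low as those of SAMD9 and CMPK2 in CON, or changes as small as that of SAMHD1. Alternatives changed the pseudocount, the filter, the scaling, the variance trend, the replicate block and the libraries fitted. With 3 libraries against 3 an exact permutation test cannot give a p under 0.1. Figures used matplotlib 3.10.9 in Python 3.11.15.

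The genes, lists, tests and alternatives were chosen with earlier results of these data known. Named were all genes of the set, their class counterparts, called related genes, the gene of the nearest profile and the neighbours. A promoter motif search was planned and not made, because no promoter sequence was used here.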

Additional observations from a re-analysis of the deposited data

How the results depend on the processing

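Under 10 other settings, and in 9 fits that each left out a library, the same 7 genes stayed called in GB vs. GA and in GB vs. CON, and 0 were called in GA vs. CON. Signs turned only in GA vs. CON, with median-of-ratios factors (ADAR −0.015 and ZNFX1 −0.019) and quantile normalization (ADAR −0.012 and ZNFX1 −0.024). The number of all genes called in GA vs. CON was 9, and it was 2 with a filter at a mean FPKM of 1, 5 with the replicate block and 3 to 13 with 1 library left out. Whether the replicate numbers pair the libraries is not given in the sources used here. No correlation of the deviations of same-numbered libraries passed 0.0772, and low correlations cannot show that the libraries were unpaired. With the block SAMHD1 in GB vs. CON had an adjusted p of 0.0739 (limma), and no call among the 8 genes changed. The log2FC of SAMD9 in GB vs. GA ranged from 6.14 to 8.53, with pseudocounts of 1 and 0.1. SAMD9 fell below the filter when only GA and CON were fitted. Precision is lowest for SAMD9 and CMPK2 without IFNT, where levels are low.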
